A study of Mus musculus with 15 samples.

Results

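The members are the 37 genes of the mouse mitochondrial genome, taken as every row of the count table whose symbol starts with mt-, out of 55536 genes. They comprise 13 protein genes, 2 ribosomal RNA (rRNA) genes and 22 transfer RNA (tRNA) genes, and all 37 matched the GENCODE M21 annotation of GRCm38, which is the mm10 build. Counts came from bulk RNA sequencing of whole blood of 15 male C57Bl/6 mice aged 10 months, each library labelled as a separate sample and taken as 1 animal. In the TBT group (n = 8) the mothers took tributyltin, an organotin compound, in their drinking water until the pups were weaned, at 0.5 mg per kg body weight a day (3.07 µM). The vehicle group (n = 7) came from control mothers, and the labels give vehicle 3 a tumor. The animals were wild-type, and no label names a batch.

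The mitochondrial genome is a small circle whose strands, called heavy and light, are each copied into a long RNA that carries many genes. Most tRNA genes lie between the others, and cutting the tRNAs out of the long RNA releases the messenger and ribosomal RNAs. The protein genes encode core subunits of the respiratory chain and of ATP synthase. In blood, white cells, platelets and young red cells hold mitochondria, while mature red cells have lost them.

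The libraries held 6031530 to 11985305 counts, and mitochondrial genes took 86293 to 472064 counts of a library. Haemoglobin genes made up 28.8% to 50.8% of counts, and the markers of red cells, platelets, neutrophils, monocytes, B cells, T cells and NK cells were all above 0 in every library, so the label of blood held. TBT 2, TBT 8 and vehicle 6 stood apart: the first pair had the lowest scaling factors (0.404 and 0.528) and the lowest Ptprc, a marker of white cells, while Gm23935 took 14.0% of the counts of vehicle 6 and at most 0.441% in the others. Results that rest on these libraries are given with and without them. Hepatocyte genes were also read: the summed level of Alb, Apoa1, Ttr, Serpina1a and Apob was 213 to 728 CPM (counts of a gene scaled to a library total of 1000000) in vehicle 4, TBT 1, vehicle 7 and TBT 8, and 1.80 to 81.1 CPM in the other 11 libraries. In bulk RNA, fewer cells of a type and less RNA per cell cannot be told apart.

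The sequences that bear most on the counts are those with a near-identical copy in the nucleus. On chromosome 1 (chr1:24611535-24616197), GENCODE annotates 7 pseudogenes of mitochondrial genes. Their matches run from position 6381 to 11042 of the mitochondrial genome, the end of mt-Co1 to most of mt-Nd4, called the copied stretch below. The pseudogenes cover few bases or none of the tRNA genes in it, and only the end of mt-Atp8. Whether chromosome 1 also holds the bases between the pseudogenes was not checked. Gm28661, Gm10925, Gm28437, Gm10222 and Gm28439 were identical over their whole length to mt-Co2, mt-Atp6, mt-Co3, mt-Nd4l and mt-Nd4. Gm28438 matched mt-Nd3 at 99.7% of bases and Gm29216 matched the end of mt-Co1 at 98.8%, with 6 substitutions. The pair without a difference is shown by mt-Nd4l (chrM:9877-10173), a subunit of complex I, and Gm10222 (chr1:24612407-24612700, minus strand).
mt-Nd4l: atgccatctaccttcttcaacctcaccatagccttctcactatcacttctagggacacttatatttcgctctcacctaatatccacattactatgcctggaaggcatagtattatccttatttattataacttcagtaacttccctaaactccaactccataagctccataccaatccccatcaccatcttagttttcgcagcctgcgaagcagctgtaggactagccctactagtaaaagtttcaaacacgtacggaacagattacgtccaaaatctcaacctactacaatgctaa
Gm10222: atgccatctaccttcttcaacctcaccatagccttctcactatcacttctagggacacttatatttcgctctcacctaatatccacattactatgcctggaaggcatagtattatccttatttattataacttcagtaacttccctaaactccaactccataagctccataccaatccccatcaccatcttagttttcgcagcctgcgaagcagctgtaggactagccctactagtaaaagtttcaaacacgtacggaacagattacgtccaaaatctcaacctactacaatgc

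The pair with a single difference is mt-Nd3 (chrM:9459-9806), another subunit of complex I, and Gm28438 (chr1:24612775-24613119, minus strand). The first 60 bases of each are shown. The capital marks the substitution T3C, counted from 1 at the 5′ end of mt-Nd3, with the base of mt-Nd3 first.
mt-Nd3 start: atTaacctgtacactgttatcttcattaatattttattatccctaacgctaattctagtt
Gm28438 start: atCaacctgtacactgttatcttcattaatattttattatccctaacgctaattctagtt

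Neighbouring mitochondrial genes also share bases. mt-Atp8 and mt-Atp6, both subunits of ATP synthase, overlap by 43 bases, shown in capitals at the end of mt-Atp8 (chrM:7766-7969). mt-Nd4l and mt-Nd4 overlap by 7 bases. mt-Nd5 and mt-Nd6 lie on opposite strands and overlap by 14 bases, shown in capitals in the last 60 bases of mt-Nd6.
mt-Atp8: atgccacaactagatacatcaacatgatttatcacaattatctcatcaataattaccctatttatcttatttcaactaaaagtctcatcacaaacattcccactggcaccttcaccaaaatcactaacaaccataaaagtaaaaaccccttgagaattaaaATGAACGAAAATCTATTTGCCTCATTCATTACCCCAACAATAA
mt-Nd6 end: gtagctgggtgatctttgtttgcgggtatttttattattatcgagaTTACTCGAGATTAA

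How the counting treated reads that fit several places or several genes is not given in the sources used here, and neither is its strand setting. Values of the genes inside the copied stretch are therefore uncertain, and at overlaps between strands, such as mt-Nd5 and mt-Nd6, reads may not have been told apart. The same holds for reads of the opposite strand over any gene, so levels and shares by strand below carry this limit.

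Mitochondrial genes took 1.02% of all counts in TBT 2, the lowest library, and 4.58% in vehicle 7, the highest. The mean was 2.30 ± 1.10% in TBT and 2.67 ± 1.27% in vehicle (SD, n = 8 and 7), and the group ranges overlapped almost wholly. The 4 libraries above 3% were vehicle 7 (4.58%), TBT 1 (4.51%), vehicle 4 (4.38%) and TBT 8 (3.23%), the same 4 that were highest in hepatocyte markers. With haemoglobin genes and Gm23935 left out of the total, the share ran from 2.08% (TBT 2) to 7.86% (vehicle 4), and these 4 libraries stayed the highest. Over all libraries, protein genes gave 93.2% of mitochondrial counts, rRNA genes 6.55% and tRNA genes 0.27%. These are shares of counts, not of RNA in the blood, and any removal of rRNA in library preparation would lower the rRNA part.

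**Figure D1:**
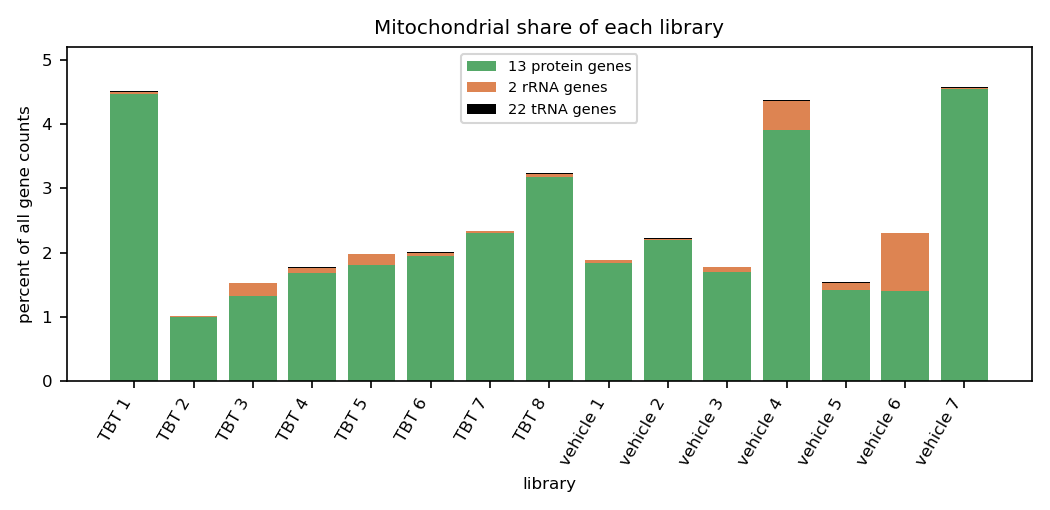
Percent of all gene counts (y axis, from 0) taken by mitochondrial protein, rRNA and tRNA genes in each of the 15 libraries (x axis), as stacked bars, 1 animal a bar. Vehicle 7, TBT 1, vehicle 4 and TBT 8 are highest (3.23% to 4.58%), and vehicle 6 has the largest rRNA part (0.904% of all counts).

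Levels between genes were compared as CPM per kb of gene, as the mean ± SD over the 15 libraries. mt-Co1, the catalytic subunit of cytochrome c oxidase (complex IV), was the highest at 5244 ± 1901. It was followed by mt-Cytb, the mitochondrially encoded subunit of complex III, at 2775 ± 1588 and by mt-Nd1 at 2739 ± 1459, which differed by far less than their spread. mt-Nd5 (2203 ± 1225), mt-Nd2 (1997 ± 1495), mt-Nd6 (1893 ± 1044) and mt-Nd4 (1499 ± 832), all subunits of complex I, came next, each within 1 SD of its neighbour in the order. The 5 protein genes wholly outside the copied stretch thus lay between 1893 and 2775.

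The 6 protein genes inside the copied stretch were lower in every case. Their mean levels per kb were 76.8 for mt-Atp8, 42.2 for mt-Atp6, 39.4 for mt-Co2, 19.6 for mt-Nd3, 8.79 for mt-Nd4l and 7.20 for mt-Co3. Of all 50-base words of these genes, 98.0% to 100% also occurred in another annotated gene, except for mt-Atp8, which had none. mt-Atp8 lies between mt-Co2 and mt-Atp6 inside the copied stretch. On chromosome 1 the annotated pseudogenes cover only the 43 bases that it shares with mt-Atp6, which is shorter than a 50-base word. mt-Co1 shared 51.1% of its 50-base words with other annotated genes: 430 of the 765 shared words occurred in Gm29216, and the other genes that held such words were Gm13340 and Gm11512. mt-Nd4 shared 62.2% of its words, all with Gm28439. Divided by the unshared words alone, the level of mt-Co1 became 11084 and that of mt-Nd4 became 4116, against 2090 to 2900 for the 5 protein genes outside, so these values depend on whether shared reads were counted, which is not given.

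The pseudogene rows held counts as well, all of them lower in total than their mitochondrial partner. Gm10925 had 2696 counts over the 15 libraries against 4056 for mt-Atp6, and Gm28437 had 654 against 813 for mt-Co3. Gm28438 had 62 counts against 988 for mt-Nd3. Gm29216 had 1171 against 1159612 for mt-Co1, which is 0.101% of their sum. Counts per gene of the copied stretch therefore cannot be read as levels of the mitochondrial RNA. This holds wherever mt-Co2, mt-Atp8, mt-Atp6, mt-Co3, mt-Nd3 or mt-Nd4l is given below, and in part for mt-Co1 and mt-Nd4.

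**Figure D2:**
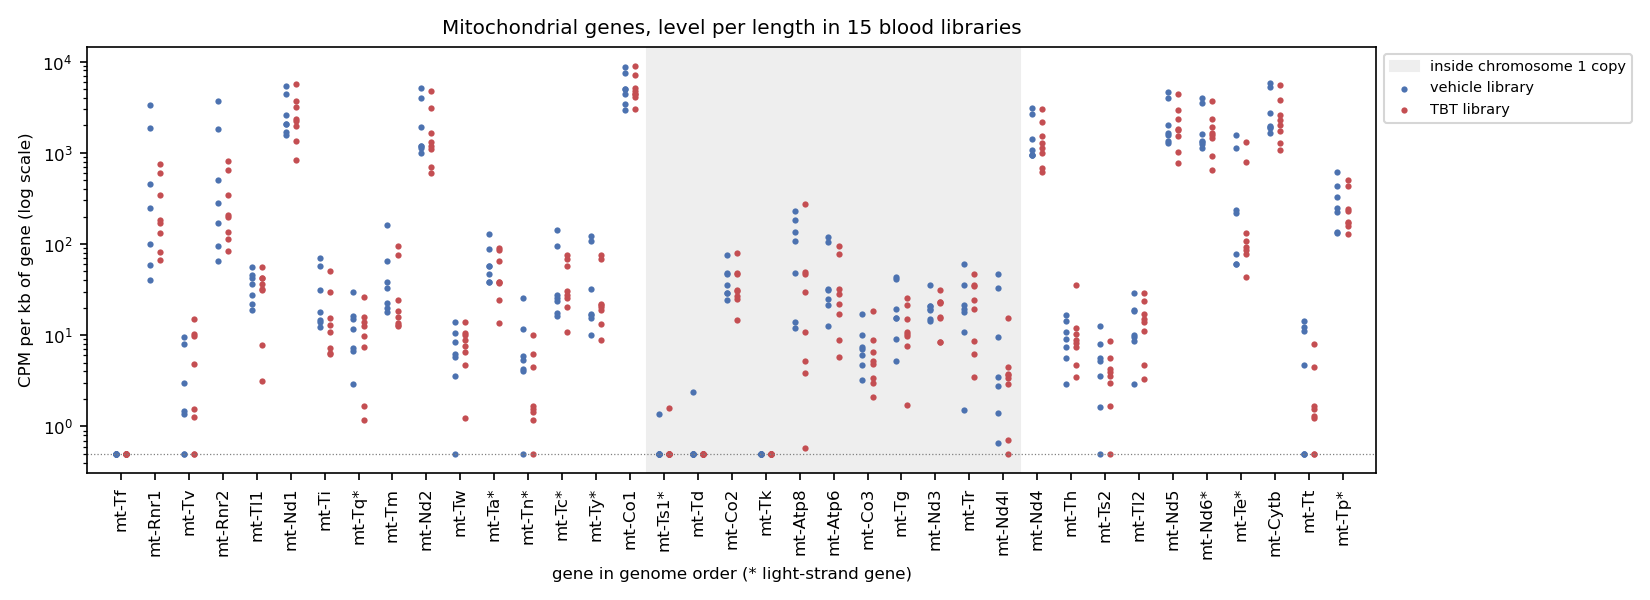
Level of each of the 37 mitochondrial genes as CPM per kb of gene (y axis, log scale) in genome order (x axis), 1 point a library, with values under 0.5 drawn at the dotted line. Protein genes in the shaded stretch, which spans the matches to chromosome 1 pseudogenes, average 7.20 to 76.8, against 1893 to 2775 for those wholly outside it.

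By respiratory complex, the 7 genes of complex I gave 49.2 ± 4.61% of protein-gene counts (SD, n = 15), the 3 of complex IV 37.3 ± 5.75%, mt-Cytb of complex III 13.4 ± 1.33% and the ATP synthase genes 0.178 ± 0.096%. Both ATP synthase genes, mt-Co2 and mt-Co3 of complex IV and mt-Nd3 and mt-Nd4l of complex I lie inside the copied stretch, so these shares carry the same uncertainty. Complex I was highest in vehicle 7 (55.3%) and lowest in TBT 3 (40.3%). Complex IV, nearly all of it mt-Co1, was highest in TBT 3 (48.4%) and lowest in vehicle 4 (29.5%). The log2 ratio of mt-Nd4 to mt-Cytb moved least, from -0.75 (vehicle 6) to -0.51 (TBT 7), and that of mt-Nd5 to mt-Cytb ran from 0.14 (vehicle 6) to 0.51 (TBT 7). By group, mt-Nd4 to mt-Cytb was -0.567 ± 0.041 in TBT and -0.662 ± 0.070 in vehicle (SD, n = 8 and 7). Mean shares in TBT and vehicle were 48.2% and 50.3% for complex I and 38.9% and 35.4% for complex IV. They were 12.8% and 14.1% for complex III and 0.133% and 0.229% for ATP synthase. All these group ranges overlapped, and the differences were not tested. Inside the copied stretch, mt-Atp8 and mt-Nd4l varied far more: mt-Atp8 was 0.118 CPM in TBT 2, a median of 9.57 and 56.1 in TBT 1, and mt-Nd4l was 0 in TBT 2, a median of 1.04 and 13.8 in vehicle 4.

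The genes fall into 28 on the heavy strand (annotated as plus) and 9 on the light strand (minus). Light-strand genes gave 4.17% of mitochondrial counts, and 95.2 ± 1.84% of a library's light-strand counts (SD, n = 15) were mt-Nd6, the sole protein gene of that strand. mt-Nd6 differs from the others in bases as well as strand: it held 28.1% G and 5.97% C, while the 12 heavy-strand protein genes held 5.88% to 16.1% G and 22.1% to 30.0% C. The light-strand share ran from 2.95% (vehicle 6) to 4.88% (vehicle 7), with a mean of 4.11 ± 0.481% in TBT and 4.02 ± 0.604% in vehicle (SD, n = 8 and 7). With rRNA left out of the total it ran from 3.57% (TBT 2) to 5.04% (vehicle 4), and the order of the means turned: 4.29 ± 0.422% in TBT and 4.45 ± 0.469% in vehicle. Both differences were smaller than the spread between animals.

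Among the tRNA genes the split between strands was the other way round. The 8 light-strand tRNA genes gave 7750 counts and the 14 heavy-strand ones 1801. mt-Te, the tRNA for glutamate, had 3682 counts and mt-Tp, the tRNA for proline, had 2586, more than any other tRNA gene. Both lie on the light strand, and the direction of the split in total counts rests on them. Per length they averaged 398 ± 520 and 276 ± 151 CPM per kb (SD, n = 15), against at most 56.4 for the other 20. mt-Te abuts the 5′ end of mt-Nd6 (chrM:14071-14139), and mt-Tp is the last gene of the map (chrM:15356-15422).
mt-Te: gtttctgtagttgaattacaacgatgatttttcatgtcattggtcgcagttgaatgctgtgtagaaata
mt-Tp: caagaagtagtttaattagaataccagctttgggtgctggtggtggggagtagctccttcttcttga

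mt-Te ran from 3.00 CPM in TBT 3 to 107 in vehicle 7, a 35.5-fold range, while mt-Tp ran from 8.64 (TBT 4) to 41.3 (vehicle 7), a 4.78-fold range. Next in count were mt-Ta (550), mt-Tc (403), mt-Tm (386), mt-Tl1 (365) and mt-Ty (352), the tRNAs for alanine, cysteine, methionine, leucine and tyrosine. mt-Ta, mt-Tn, mt-Tc and mt-Ty stand in a row on the light strand, yet mt-Tn, the tRNA for asparagine, had 53 counts. Neighbours on the same strand thus differed in counts within the same libraries. Counts over a tRNA gene may come from mature tRNA or from longer RNA not yet cut, which cannot be told apart here. They are therefore not read as levels of mature tRNA.

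Of the 22 tRNA genes, 13 were read in all 15 libraries. mt-Tf, at the start of the map, and mt-Tk, inside the copied stretch, had 0 counts in every library, which allows up to 3 counts in each. mt-Td had 1 count in all and mt-Ts1 had 2, and both also lie inside the copied stretch. The other tRNA genes inside it, mt-Tr with 219 counts and mt-Tg with 161, were read in all 15 libraries. The tRNA genes are 59 to 75 bases long, and their share of mitochondrial counts ran from 0.155% (TBT 3) to 0.450% (vehicle 7).

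The 2 rRNA genes varied more between libraries than any protein gene outside the copied stretch. Each library was taken as 1 animal, so differences between animals and between library preparations, any removal of rRNA included, cannot be told apart. mt-Rnr2, the large-subunit rRNA, ran from 103 CPM in vehicle 7 over a median of 325 to 5825 in vehicle 6, a 56.4-fold range. mt-Rnr1, the small-subunit rRNA, ran from 38.5 CPM in vehicle 7 over 174 to 3214 in vehicle 6, an 83.6-fold range. By contrast mt-Co1 spanned 3.00-fold, mt-Cytb 5.47-fold and mt-Nd6 6.19-fold. Vehicle 6 (39.3%), TBT 3 (13.2%) and vehicle 4 (10.5%) had the highest rRNA share of mitochondrial counts, and vehicle 7 (0.309%) the lowest. The rRNAs moved together: the ratio of mt-Rnr2 to mt-Rnr1 counts stayed between 1.61 (vehicle 4) and 2.84 (vehicle 1).

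Because the rRNAs moved apart from the messenger RNAs, nuclear genes beside them were looked at after the values had been seen. Lars2, the mitochondrial leucyl-tRNA synthetase, was 1340 CPM in vehicle 6, 291 in vehicle 4 and 257 in TBT 3, the 3 libraries highest in mt-Rnr2, and 32.1 to 221 in the other 12. For correlations, levels were log2 CPM of the counts outside haemoglobin genes. Across the 15 libraries mt-Rnr2 and Lars2 correlated with Pearson's r = 0.948 and Spearman's rho = 0.854. Permutation tests gave adjusted p = 2e-05 and 0.00045 over 6 relations chosen this way. As the relations were picked from the same values, these p values do not measure chance. The r of mt-Rnr2 with Lars2 was 0.897 without the pair of libraries farthest out, 0.921 within TBT and 0.964 within vehicle. No 16-base word of either rRNA occurred in the 9 annotated Lars2 transcripts. Only these mitochondrial rRNAs were compared with Lars2, so the comparison cannot say what RNA the Lars2 counts came from. For Gm23935, r was 0.574 (permutation test, adjusted p = 0.0297), and without vehicle 6 and vehicle 7 it was 0.382 (permutation p = 0.199), so the relation rests on those libraries. Their part in the rRNA level was not tested.

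**Figure D3:**
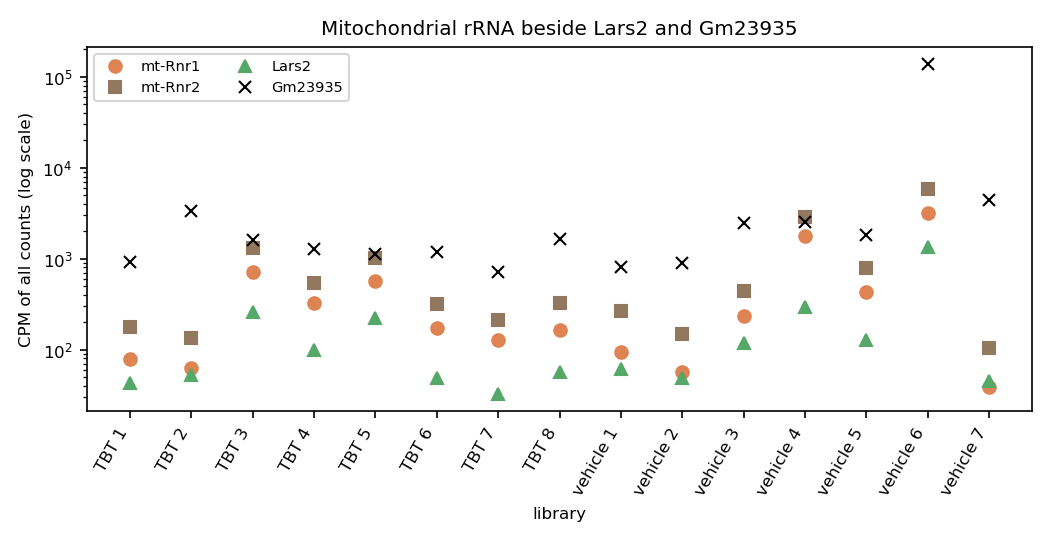
CPM of all counts (y axis, log scale) of mt-Rnr1, mt-Rnr2, Lars2 and Gm23935 in each of the 15 libraries (x axis), 1 point a gene and library. mt-Rnr1, mt-Rnr2 and Lars2 go up and down together, with vehicle 6 highest in all (3214, 5825 and 1340 CPM).

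The proportions among the messenger RNAs also differed between libraries. The log2 ratio of mt-Nd2 to mt-Nd1 counts, both heavy-strand complex I genes outside the copied stretch, was 0.02 in vehicle 7, -0.02 in vehicle 4, -0.13 in TBT 1 and -0.14 in TBT 8. In the other 11 libraries it lay between -0.84 (TBT 7) and -0.28 (vehicle 6). The log2 ratio of mt-Te to mt-Nd6 showed the same 4 libraries on top, at -4.58 to -4.27, and the others at -7.36 to -5.17. mt-Co1 took 19.8% (vehicle 6) to 45.9% (TBT 2) of mitochondrial counts. The log2 ratio of mt-Co1 to mt-Cytb was highest in TBT 3 (2.12) and lowest in vehicle 4 (0.93).

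These proportions were set beside the hepatocyte markers after both had been seen. The relations are among the 6 picked from the values, so their p values do not measure chance either. The mt-Nd2 to mt-Nd1 ratio rose with the log2 marker level, with r = 0.945 and rho = 0.925 over 15 libraries (permutation tests, adjusted p = 2e-05 and 0.00012). It was 0.939 without vehicle 4 and TBT 1, the farthest out, 0.926 within TBT and 0.966 within vehicle. The level of mt-Cytb, as log2 CPM of the counts outside haemoglobin genes, gave r = 0.801 and rho = 0.529 (permutation tests, adjusted p = 0.00093 and 0.0544). The adjusted p of its rank relation was thus above 0.05, and its rho was 0.262 within TBT and 0.786 within vehicle. The mt-Co1 to mt-Cytb ratio fell with the markers (r = -0.694, rho = -0.671, permutation tests, adjusted p = 0.00564 and 0.0114), but r was -0.428 within TBT and -0.960 within vehicle. Without vehicle 4 and TBT 1 it was -0.554 (permutation p = 0.0502). The mt-Te to mt-Nd6 ratio gave r = 0.909 and rho = 0.796 (permutation tests, adjusted p = 2e-05 and 0.00106). Both this ratio and that of mt-Nd2 to mt-Nd1 fell into separate groups of libraries, which limits what their r values show. The part of hepatocyte RNA in these proportions was not tested.

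**Figure D4:**
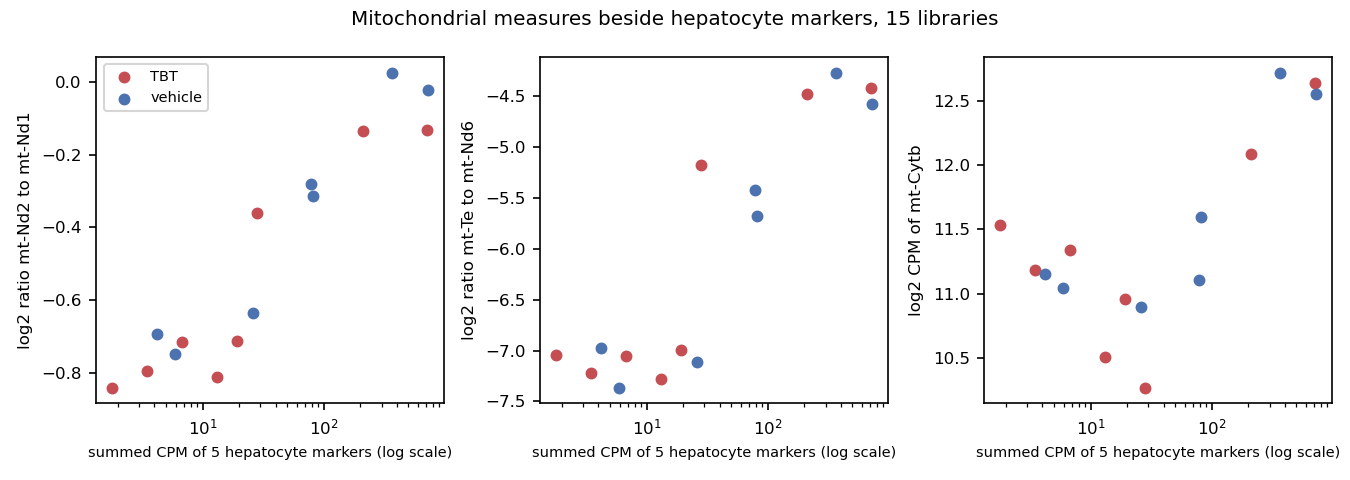
Log2 count ratio of mt-Nd2 to mt-Nd1, log2 count ratio of mt-Te to mt-Nd6 and log2 CPM of mt-Cytb (y axes) against the summed CPM of 5 hepatocyte markers (x axes, log scale), 1 point a library, coloured by group. The 4 libraries with 213 CPM or more of markers are highest in all 3 measures, and the groups are mixed along both axes.

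Relations with blood cell markers were read as well. Levels of mt-Cytb and mt-Rnr2, as CPM of the counts outside haemoglobin genes, were set beside the haemoglobin share, the platelet gene Ppbp and the white cell gene Ptprc. None of the 6 passed. The r of mt-Cytb was 0.247 with haemoglobin (permutation test, adjusted p = 0.568), 0.411 with Ppbp (adjusted p = 0.568) and -0.250 with Ptprc (adjusted p = 0.568). The corresponding rho values were 0.168, 0.439 and -0.389. With haemoglobin, r was 0.012 within TBT and 0.725 within vehicle (rho -0.238 and 0.821), and this difference between the groups was not tested. Without the pair of libraries farthest out they were 0.534, 0.210 and -0.410 as r. Without TBT 2, TBT 8 and vehicle 6, the r of mt-Cytb with Ptprc was -0.752 (permutation test, adjusted p = 0.0367), so mt-Cytb was then lower where Ptprc was higher. For mt-Rnr2, r ran from -0.289 (Ppbp) over -0.087 (Ptprc) to 0.036 (haemoglobin).

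The labelled comparison asks whether blood mitochondrial RNA differed between offspring of TBT-exposed and vehicle mothers. No gene of the 13364 tested passed edgeR's quasi-likelihood test at an adjusted p of 0.05 (0% called), so none of the 26 tested members did. The remaining 11 members, all tRNA genes, were too low for the filter. At an unadjusted edgeR p of 0.05, 3 of 26 members were below vehicle and 0 above it. Over all genes 1.76% were below and 4.57% above at that level (6.33% in all). Single libraries moved this count: it was 0 when TBT 2, TBT 4, TBT 6, TBT 7, vehicle 4 or vehicle 6 was left out, and 6 of 24 without TBT 8. The smallest adjusted p among members was 0.743.

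The fold change was below 0 for 24 of the 26 tested members, with a median log2 value of -0.30, while 40.6% of all tested genes were below 0 with a median of 0.05. Single libraries moved it both ways, and leaving out either vehicle 4 or vehicle 7 ended the direction. Without vehicle 4, 10 of 26 were below 0 (median 0.02), and without vehicle 7, 12 of 26 (median 0.03). Other libraries moved it away from 0: without TBT 8 it was 24 of 24 below 0 (median -0.71), without TBT 1 it was 23 of 24 (-0.45), and without vehicle 3, the animal labelled with a tumor, 26 of 26 (-0.47). With the log2 hepatocyte marker level as a covariate, added after seeing the data, 9 of 26 were below 0 (median 0.14), and 0 had an unadjusted edgeR p under 0.05 in either direction, while 2.02% of all genes were lower at that level. Without TBT 2, TBT 8 and vehicle 6 it was 25 of 25, with a median of -0.81. The marker level ran from 1.80 to 705 CPM in TBT (median 16.2) and from 4.17 to 728 in vehicle (median 78.6), and its part in the fold changes was not tested.

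The messenger RNAs named for their strand and complex showed the overlap. In CPM on TMM-scaled library sizes, mt-Co1 was 5016 (TBT 7), a median of 5585 and 20832 (TBT 8) in TBT, and 4825 (vehicle 5), 6990 and 14281 (vehicle 4) in vehicle. Its log2 fold change was 0.06 (SE 0.46, edgeR, adjusted p = 0.997). It was -0.26 without TBT 8 and -0.49 without TBT 2, TBT 8 and vehicle 6, so no direction is given for it. mt-Cytb was 1353 (TBT 3), a median of 1865 and 8255 (TBT 8) in TBT, against 1555 (vehicle 3), 2997 and 7486 (vehicle 4) in vehicle. Its log2 fold change was -0.24 (SE 0.49, edgeR, adjusted p = 0.981). It was 0.02 without vehicle 4, -0.64 without TBT 8 and -0.75 without TBT 2, TBT 8 and vehicle 6. mt-Nd6, on the light strand, was 442 (TBT 3), a median of 631 and 2335 (TBT 8) in TBT, against 509 (vehicle 3), 822 and 2296 (vehicle 4). Its log2 fold change was -0.22 (SE 0.44, edgeR, adjusted p = 0.979). It was 0.05 without vehicle 4, -0.57 without TBT 8 and -0.64 without all 3. For all 3 genes the group ranges overlapped, and the highest library was TBT 8.

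The 3 members with an unadjusted p under 0.05 were the rRNAs and mt-Nd4l. mt-Rnr2 was 135 (TBT 7), a median of 376 and 1209 (TBT 3) TMM-scaled CPM in TBT, against 109 (vehicle 7), 328 and 7936 (vehicle 6) in vehicle. The medians thus differed little, and the vehicle group held both the lowest and the highest library. Its log2 fold change was -1.94 (SE 0.87, edgeR, unadjusted p = 0.0412, adjusted p = 0.762). mt-Rnr1 was 66.2 to 663 in TBT and 40.6 to 4379 in vehicle, with a log2 fold change of -2.0 (SE 0.93, edgeR, unadjusted p = 0.0472, adjusted p = 0.779). Without vehicle 6 the values were -0.81 for mt-Rnr2 and -0.91 for mt-Rnr1, and without all 3 libraries that stood apart -0.81 and -0.87. With limma-voom and quality weights in place of edgeR they were -0.72 and -0.47.

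mt-Nd4l, inside the copied stretch, had 389 counts in all 15 libraries and 0 in TBT 2. On TMM-scaled library sizes it was 0 to 3.89 CPM (TBT 1) in TBT with a median of 0.810, and 0.177 (vehicle 5) to 17.2 (vehicle 4) in vehicle with a median of 0.813. Its log2 fold change was -2.05 (SE 0.89, edgeR, unadjusted p = 0.0359, adjusted p = 0.743), and it was -1.27 without vehicle 4 and -0.90 with limma-voom. mt-Tg, the tRNA for glycine inside the same stretch, had the next smallest p. It was 0.292 to 1.93 CPM in TBT and 0.348 to 3.46 in vehicle, with a log2 fold change of -0.84 (SE 0.48, edgeR, adjusted p = 0.849), and -0.47 without vehicle 4. The other 19 tested members had log2 fold changes from -1.32 (mt-Atp8) to 0.05 (mt-Co2), none with an unadjusted edgeR p under 0.05. Both mt-Atp8 and mt-Co2 lie inside the copied stretch. Without TBT 1, mt-Atp8 was -2.60 (edgeR, unadjusted p = 0.0051, adjusted p = 0.686). Among the other tRNA genes mt-Ti (-0.80), mt-Ty (-0.52), mt-Tm (-0.51) and mt-Te (-0.41) were lowest, with standard errors of 0.64 to 1.04. mt-Nd1 (-0.11), mt-Nd2 (-0.27), mt-Nd4 (-0.14) and mt-Nd5 (-0.19), the complex I genes of the heavy strand with high counts, had standard errors of 0.46 to 0.57. Without TBT 2, TBT 8 and vehicle 6 they were -0.54, -0.86, -0.68 and -0.66.

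**Figure D5:**
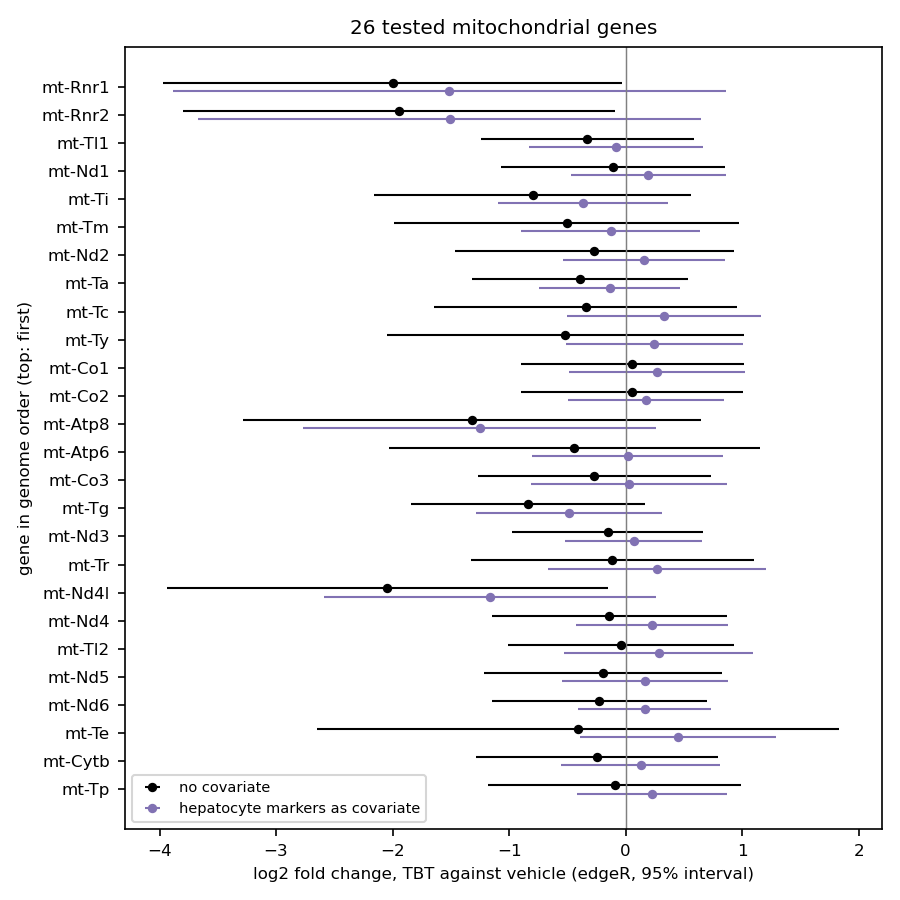
Log2 fold change, TBT against vehicle, with its 95% interval from edgeR (x axis) for the 26 tested mitochondrial genes in genome order (y axis), without and with the hepatocyte marker level as a covariate. Without it 24 of 26 lie below 0, and with it 9 of 26 do.

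Ratios between genes of the same library do not depend on library scaling, and 6 of them were tested. Each test was an exact permutation test, two-sided, over the 6435 ways to split the animals, which cannot give a p under 0.000155. None passed after adjustment over the 6. The log2 ratio of mt-Rnr2 to mt-Rnr1 was 0.91 ± 0.16 in TBT and 1.10 ± 0.33 in vehicle (SD, n = 8 and 7), exact p = 0.182 and adjusted p = 0.425. The light-strand mt-Nd6 against the heavy-strand mt-Cytb gave -1.64 ± 0.16 and -1.73 ± 0.08, exact p = 0.232 and adjusted p = 0.425. Its linear ratio stayed between 0.270 (TBT 2) and 0.382 (TBT 4). Whether this ratio measures strand balance depends on the strand setting of the counting, which is not given. mt-Nd5 to mt-Nd1 was similarly steady, at 0.59 ± 0.09 and 0.63 ± 0.10, exact p = 0.475 and adjusted p = 0.535.

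The other 3 ratios spread widely. mt-Co1 to mt-Rnr2 was 4.36 ± 1.36 in TBT and 3.70 ± 2.47 in vehicle, exact p = 0.535 and adjusted p = 0.535, and its difference went from 0.66 to -0.02 without vehicle 6. mt-Atp8 to mt-Atp6 was -2.36 ± 2.06 and -0.89 ± 2.21, exact p = 0.199 and adjusted p = 0.425. Its linear ratio ran from 0.0401 in vehicle 7 to 4.33 in vehicle 5, although the genes are neighbours that share 43 bases. mt-Nd4l to mt-Nd4 was -11.12 ± 1.41 and -10.14 ± 1.93, exact p = 0.283 and adjusted p = 0.425, and without TBT 2, TBT 8 and vehicle 6 the difference was 0.02. Both of these ratios involve genes inside the copied stretch.

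Nuclear genes that make and handle mitochondrial RNA were read from the same fit. Of a list for transcription and maintenance of the genome, which holds the RNA polymerase Polrmt, the packaging factor Tfam and replication genes such as Polg, 13 of 14 were tested, 7 above and 6 below 0, with a median log2 fold change of 0.05 and 0 called by edgeR. Tefm, an elongation factor, was 1.74 ± 0.66 TMM-scaled CPM in TBT and 0.859 ± 0.542 in vehicle (SD, n = 8 and 7), with a log2 fold change of 0.86 (edgeR, unadjusted p = 0.0288, adjusted p = 0.731). Mterf3, a member of the transcription termination factor family, was 0.32 (edgeR, unadjusted p = 0.0338, adjusted p = 0.736). Polg, the mitochondrial DNA polymerase, was -0.25 (edgeR, adjusted p = 0.825).

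Of the genes for processing, polyadenylation and turnover, 19 of 20 were tested, 15 above and 4 below 0, with a median of 0.08 and 0 called. The 3 with the smallest p were Fastkd5 (0.58), which acts in messenger RNA processing, Rexo2 (0.32), an RNase for short RNAs, and Mtpap (0.17), the poly(A) polymerase. Their edgeR adjusted p values were 0.785, 0.867 and 0.872. Of the genes for modification of mitochondrial rRNA and tRNA, 15 of 18 were tested, 11 above and 4 below 0, with a median of 0.09 and 0 called. Trub2, a pseudouridine synthase, was 6.61 ± 1.10 CPM in TBT and 8.32 ± 1.19 in vehicle (SD, n = 8 and 7), with a log2 fold change of -0.33 (edgeR, unadjusted p = 0.0228, adjusted p = 0.731). Mrm1, a methyltransferase of mt-Rnr2, was -0.38 (edgeR, adjusted p = 0.784) and Nsun3, a tRNA methyltransferase, was 0.14 (edgeR, adjusted p = 0.964). Over all tested genes the median was 0.05, so the lists lay close to it.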

How the data were processed

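Per the labels' protocols, blood RNA was purified on RNeasy columns with a DNase step, and libraries were made with TruSeq Stranded Total RNA. Per the submitters' processing notes, Trim Galore, HISAT2 with mm10 and featureCounts were used. For versions, annotation release, strand setting and the handling of shared reads, nothing is stated in the sources used here. Raw counts per gene, not normalized, are what the authors deposited.

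Members and lists were chosen with earlier results of these data known. Genes were filtered with filterByExpr, scaled by TMM and tested with edgeR 4.0.16 (robust quasi-likelihood, Benjamini-Hochberg over 13364 genes). Common biological variation was 0.290. Ratios used counts plus 0.5. Correlations used 100000 permutations, whose smallest adjusted p was 2e-05. Gene positions, sequences and 50-base words came from GENCODE M21 transcripts (GRCm38). The text names mt-Rnr1, mt-Rnr2, mt-Nd6, mt-Cytb and mt-Co1 in any case, any member past the threshold, the 4 members with the smallest p and 3 genes of each nuclear list. Other members are named for strand, position or overlap. Scripts were tested on simulated data. Pairs of libraries of a group differed by at least 9.71 in chi-square per gene, so none was counted as a duplicate. Alternatives were RLE factors, no filter, DESeq2 1.42.0, limma-voom 3.58.1, left-out libraries and a replicate block.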

Additional observations from a re-analysis of the deposited data

Results flagged for a closer look

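Of 34 sets of group values checked for a library far from the rest of its group, 3 held one, and chance gives about 1 in 20. TBT 2 had a log2 ratio of mt-Nd5 to mt-Nd1 of 0.8052, and the next TBT library had 0.5951. Vehicle 6 had an rRNA share of mitochondrial counts of 39.27%, against 10.54% in the next vehicle library, vehicle 4. TBT 1 had 4.637 CPM of mt-Nd4l, and the next TBT library, TBT 6, had 1.333 CPM.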

How the results depend on the processing

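Members called stayed at 0 under every alternative run. Genes called were 0 by the main edgeR fit, 2 with no low-count filter, 12 with DESeq2, 22 with limma-voom and 7 without TBT 2, TBT 8 and vehicle 6. Without those 3 libraries the difference in rRNA share went from -4.99 to 0.853 percentage points, the log2 ratio of mt-Nd4l to mt-Nd4 reversed to 0.021 and that of mt-Co1 to mt-Rnr2 to -0.27. Correlations then were -0.752 for mt-Cytb with Ptprc, 0.051 for mt-Rnr2 with Ptprc and 0.274 for mt-Rnr2 with Gm23935. On CPM of all counts, mt-Rnr2 with haemoglobin gave -0.054. Leaving out each library in turn, the mt-Co1 to mt-Rnr2 difference ran from -0.0206 (without vehicle 6) to 1.21. The log2 fold change of mt-Co1 ran from -0.26 to 0.23, that of mt-Cytb from -0.64 to 0.0228 (without vehicle 4) and that of mt-Nd6 from -0.57 to 0.0522 (without vehicle 4). For mt-Co1 it was -0.30 with limma-voom (mt-Rnr1 -0.47, mt-Rnr2 -0.72) and -0.49 without the 3 libraries. The hepatocyte covariate, added after seeing the data, gave 0.16 for mt-Nd6 and 0.13 for mt-Cytb. The cause of these changes was not tested.

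Replicate numbers shared by the groups did not pair the animals: over 7 pairs the correlations of deviations ran from -0.235 to 0.506, 2 were over 0.1, and 1 library pair matched its own number best. The fit with the numbers as a block also leaves out TBT 8, which has no partner, so both choices change at once. It called 0 genes and gave -0.22 for mt-Co1 (-0.26 without TBT 8 alone), -0.27 for mt-Rnr1 and -0.52 for mt-Rnr2.

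Depth limits the low genes most: 11 members were too low to test, and mt-Nd4l and mt-Tg rest on 389 and 161 counts in all libraries. Single libraries, among them TBT 1, TBT 8, vehicle 4, vehicle 6 and vehicle 7, set the direction or size of several member values.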
